A study of Mus musculus with 2 samples.

Results

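A set of 10 genes was followed across 1 library of mouse neural stem cells labelled Hikeshi cKO and 1 labelled wild type: Sptlc2, Elovl1, Elovl7, Fa2h, Cers1, Cers2, Cers4, Ugt8a, Gal3st1 and Ugcg. They encode enzymes that build ceramide and turn it into galactosylceramide, sulfatide or glucosylceramide, and were picked by gene symbol from a table of 15953 genes. All 10 were in the table and all 10 passed the filter on low values, as did 12618 genes in all. Total RNA came from cells kept in suspension culture, with Hikeshi, the nuclear import carrier of HSP70 chaperones, as the gene named in the knockout label. Neither the driver of the conditional deletion, nor the strain, age, sex or number of the mice, is given in the sources used here. There were no replicates and hence no test of the genotypes, and each difference below is one between these libraries.

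Sphingolipids are membrane lipids built on a long-chain base, which serine palmitoyltransferase starts from serine and palmitoyl-CoA. Ceramide synthases join the base to a fatty acid, whose length is set by elongases and which a hydroxylase can modify. The headgroup added next decides the branch. Galactose gives galactosylceramide and, after sulfation, sulfatide, the characteristic glycolipids of myelin, which oligodendrocytes make. Glucose gives glucosylceramide, the base of gangliosides, which most cells make.

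Depth was nearly the same, at 18912683 reads in cKO-labelled and 18839079 reads in wild-type-labelled cells. Hikeshi itself had 640 reads in cKO-labelled cells and 718 in wild-type-labelled cells, a ratio of 0.888 (95% counting interval 0.797 to 0.989). In deposited TPM, which allows for transcript length, Hikeshi was at 82.35 (cKO) and 85.18 (wild type), a ratio of 0.967. The length implied by reads and FPKM was 669 bases (cKO) and 723 bases (wild type). Without knowing which exons the deletion removes, these levels do not settle the genotype, so the groups are called by their labels. Y-linked genes had reads almost only in cKO-labelled cells. Against wild-type-labelled cells, Eif2s3y had 1265 against 0, Ddx3y 846 against 0, Kdm5d 515 against 0 and Uty 305 against 1. Genotype therefore cannot be told apart from Y-linked expression, or from any difference of sex or donor, in what follows. All 6 stem cell markers were present in both, with Sox2 at 303.97 TPM (cKO) and 305.41 TPM (wild type). They were not all alike, since Vim was 1.69-fold and Nes 1.37-fold higher in cKO-labelled cells and Fabp7 1.51-fold lower. Of the 4 microglia markers listed none passed the filter, and their TPM values summed to 0.21 (cKO) and 0.24 (wild type).

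Differences are given as log2 of the ratio of CPM (reads per 1000000 reads counted), cKO over wild type, after 1 CPM was added to each value. Folds, in contrast, are plain CPM ratios, and each has a 95% interval that covers counting error only. On the log2 scale 3 of the 10 genes were at least 2-fold lower in cKO-labelled cells, and 0 were at least 2-fold higher. Over all kept genes 3.85% were lower by at least that much, 1.25% higher, and 5.1% either way. At 1.5-fold, 4 of the 10 were lower, against 10.2% of all kept genes, and 2 were higher, against 4.22%, which makes 6 either way, against 14.4%. The 2 higher genes were Ugcg and Cers1 as listed, and Cers1 turns lower once the reads of the overlapping gene Gdf1 are added. The median over the 10 genes was 0.16 and the mean -0.71, so they differ in sign, while the median over all kept genes was -0.02. The 3 lower genes, Gal3st1, Fa2h and Ugt8a, are the enzymes that make or modify the myelin glycolipids. The fourth gene lower by 1.5-fold was the elongase gene Elovl7, at -0.92. Of the shared ceramide steps, Sptlc2, Elovl1, Cers2 and Cers4 lay above 0. In whole cultures fewer cells of a type and less RNA per cell cannot be told apart. Most kept markers of the oligodendrocyte lineage were at least 2-fold lower as well, with values given at the end.

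**Figure D1:**
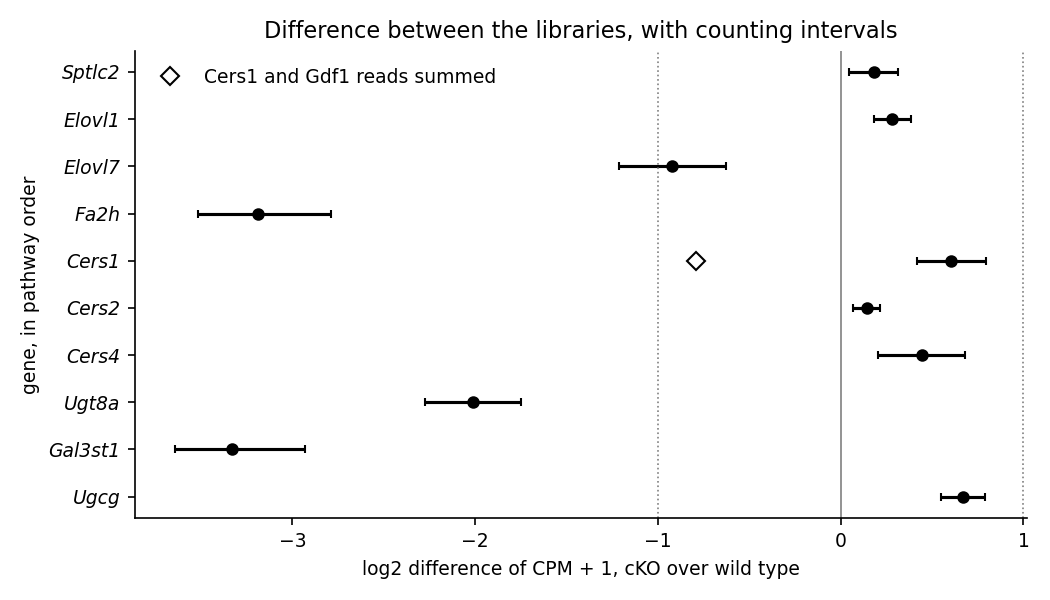
Log2 difference of CPM + 1, cKO over wild type, for the 10 genes in pathway order. Points are single values with 95% counting intervals, dotted lines mark 2-fold, and the open diamond gives Cers1 with the reads of Gdf1 added; Fa2h, Ugt8a and Gal3st1 lie between -3.33 and -2.01, and the diamond at -0.79 lies on the other side of 0 from Cers1 at 0.61.

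The start regions of the 2 galactolipid genes are shown because both genes were lower together. Sequences are from RefSeq on GRCm38.p6, 250 bases before to 50 after a transcript start, written 5′ to 3′ on the strand of the gene, and capitals mark the 50 bases after the start. Ugt8a lies on the minus strand, so its window at chr3:125938603-125938902 was read from that strand. Gal3st1 lies on the plus strand, and its window is chr11:3983386-3983685.
Ugt8a: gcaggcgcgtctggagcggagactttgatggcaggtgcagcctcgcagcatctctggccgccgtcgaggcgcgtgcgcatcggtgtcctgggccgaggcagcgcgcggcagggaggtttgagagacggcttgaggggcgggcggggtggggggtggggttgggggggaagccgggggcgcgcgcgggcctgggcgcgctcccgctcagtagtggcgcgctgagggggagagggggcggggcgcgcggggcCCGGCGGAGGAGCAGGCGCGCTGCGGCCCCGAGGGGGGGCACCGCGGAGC
Gal3st1: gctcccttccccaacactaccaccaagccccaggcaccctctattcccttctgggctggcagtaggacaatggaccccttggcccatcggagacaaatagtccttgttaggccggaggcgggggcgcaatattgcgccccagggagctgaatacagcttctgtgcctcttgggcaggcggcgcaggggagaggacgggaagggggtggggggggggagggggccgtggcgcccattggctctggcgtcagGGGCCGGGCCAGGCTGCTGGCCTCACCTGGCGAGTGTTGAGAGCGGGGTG
A start region was found for 9 of the 10 genes (all but Fa2h), in 13 different windows, of which the first 2 of Gal3st1 overlap. In all, 5 short motifs were searched on both strands in these windows. The SOX cores ACAAAG and AACAAT were in 0 of the 13 windows, against 18.7% and 10.7% of 32817 windows of all genes. The MYRF core CTGGCAC was also in 0 of 13, against 5.01%. The E-box CAGCTG was in 1, a window of Cers2 (16.3% of all windows), and the heat shock element GAANNTTC in 1, a window of Elovl1 (7.86%). No match says only that these letters are not in these 300 bases. G and C made up 78.3% of the Ugt8a window and 67.0% of this Gal3st1 window, and the median over all windows was 52.7%. This was not particular to the lower genes, since the windows of Ugcg and a first one of Cers2 held 81.3% and 75.0%. The third window of Gal3st1 held 56.0% and a second one of Cers2 54.3%.

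Gal3st1 (Entrez 53897, chromosome 11, 3983636 to 3999328, plus strand) encodes the sulfotransferase that turns galactosylceramide into sulfatide. It had 10 reads in cKO-labelled cells against 271 in wild-type-labelled cells, or 0.55 against 14.84 TPM, a level corrected for transcript length. That is 27.2-fold lower (14.6 to 57.4), and its log2 difference of -3.33 ranked 14 from the lowest of the 12618 kept genes. With 10 reads, the level in cKO-labelled cells is itself loosely known, with an exact Poisson interval of 4.80 to 18.4 reads.

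Fa2h (Entrez 338521, chromosome 8, 111345138 to 111393821, minus strand) encodes the hydroxylase that gives myelin galactolipids their 2-hydroxy fatty acids. Its 13 reads in cKO-labelled cells stood against 271 in wild-type-labelled cells, or 0.51 against 10.68 TPM. The level was 20.9-fold lower (12.03 to 39.8), with a log2 difference of -3.19 at rank 16 from the lowest. Fa2h and Gal3st1 had the same number of reads in the wild type library. Their ratio within a library did not differ detectably between the libraries, since the reads of Gal3st1 per read of Fa2h changed by a factor of 0.770 (0.297 to 1.94).

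Ugt8a (Entrez 22239, chromosome 3, 125865272 to 125938682, minus strand) encodes the transferase that adds galactose to ceramide. It had 114 reads in cKO-labelled cells against 515 in wild-type-labelled cells, or 2.83 against 12.94 TPM. It was 4.54-fold lower (3.70 to 5.61), with a log2 difference of -2.01 at rank 78 from the lowest. The difference was smaller than that of the enzymes acting beside or after it. Reads of Gal3st1 per 100 reads of Ugt8a were 8.77 in cKO-labelled cells and 52.6 in wild-type-labelled cells, 5.99-fold fewer (3.07 to 13.0). For Fa2h per 100 reads of Ugt8a the values were 11.4 and 52.6 (cKO and wild type), or 4.61-fold fewer (2.53 to 9.09). Such ratios are taken inside a library and do not depend on the scaling between libraries. The pairs of genes were chosen after their values were seen.

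Ugcg (Entrez 22234, chromosome 4, 59189507 to 59222833, plus strand) encodes the transferase that adds glucose to ceramide, and so competes with Ugt8a for the same substrate. It had 1419 reads in cKO-labelled cells against 883 in wild-type-labelled cells, or 35.83 against 22.29 TPM. It was 1.60-fold higher (1.47 to 1.74), with a log2 difference of 0.67 at rank 392 from the highest. Both transferases together held 38.7 TPM in cKO-labelled cells and 35.2 TPM in wild-type-labelled cells. Ugt8a made up 7.32% of that sum in cKO-labelled cells and 36.7% in wild-type-labelled cells. In reads, Ugt8a per 100 reads of Ugcg was 8.03 (cKO) and 58.3 (wild type), 7.25-fold fewer (5.81 to 9.12).

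**Figure D2:**
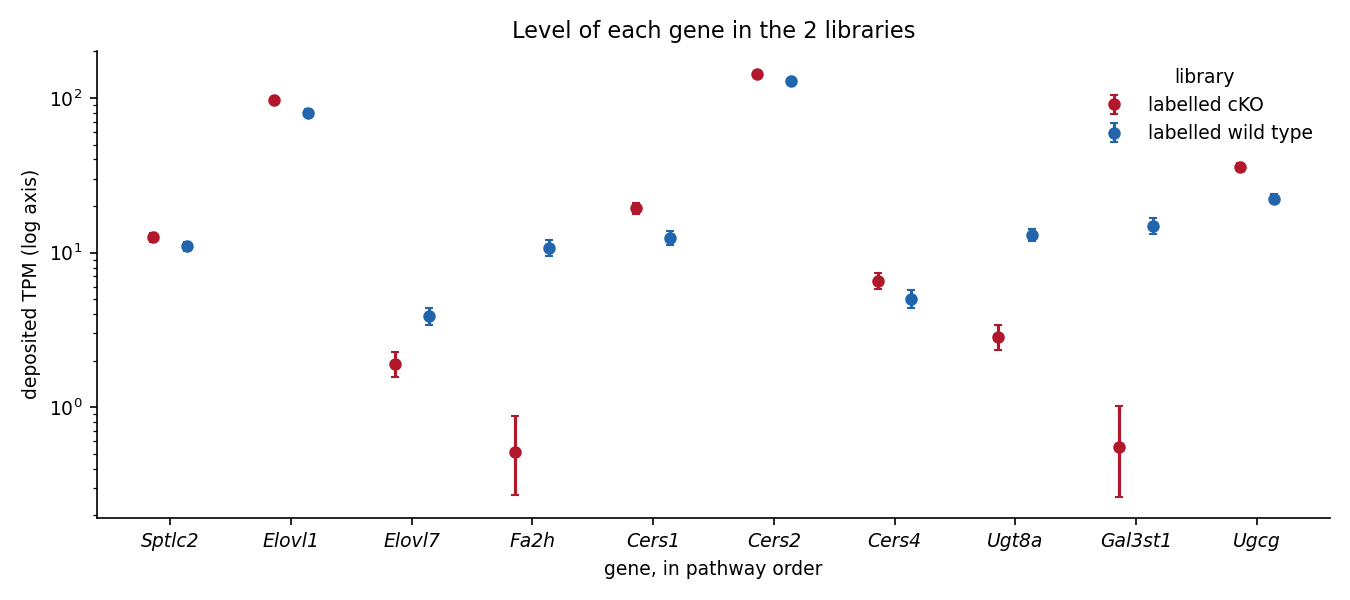
Deposited TPM on a log axis for the 10 genes in cKO-labelled cells (red, left of each pair) and wild-type-labelled cells (blue, right). Bars are exact Poisson intervals of the reads put on the TPM scale; Fa2h and Gal3st1 fall below 1 TPM in cKO-labelled cells and above 10 TPM in wild-type-labelled cells.

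Ordered by TPM, Cers2, Elovl1 and Ugcg were the 3 highest of the 10 in both libraries. Gal3st1 was number 9 in cKO-labelled cells and number 4 in wild-type-labelled cells. Fa2h was number 10 (cKO) and number 8 (wild type), and Ugt8a number 7 (cKO) and number 5 (wild type). In cKO-labelled cells only the neighbours Gal3st1 and Fa2h had overlapping Poisson intervals. In wild-type-labelled cells the run of Gal3st1, Ugt8a, Cers1, Sptlc2 and Fa2h, from 14.84 down to 10.68 TPM, had overlapping intervals between each pair of neighbours, as did Cers4 and Elovl7.

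The first step differed little. Sptlc2 (Entrez 20773, chromosome 12, 87305058 to 87388355, minus strand) encodes a catalytic subunit of serine palmitoyltransferase. It had 934 reads in cKO-labelled cells and 818 in wild-type-labelled cells, or 12.55 and 10.98 TPM, a ratio of 1.14 (1.03 to 1.25). Its partner subunit Sptlc1 had a ratio of 1.15 (1.06 to 1.25). Sptlc2 made up 19.6% of the TPM of both subunits in cKO-labelled cells and 19.7% in wild-type-labelled cells. Of 9 kept genes of long-chain base synthesis 0 were 1.5-fold apart, against 14.4% of all kept genes, and their median was 0.06. Degs1, the desaturase that completes ceramide, had a ratio of 0.943 (0.896 to 0.992).

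Among the elongases, Elovl1 and Elovl7 went opposite ways. Elovl1 (Entrez 54325, chromosome 4, 118426874 to 118432953, plus strand), which makes the very long chains of sphingolipids, had 1736 reads in cKO-labelled cells and 1418 in wild-type-labelled cells, or 97.28 and 80.01 TPM. The ratio was 1.22 (1.14 to 1.31). Its last 53 bases overlap the oppositely oriented gene Cdc20, which had 3198 reads (cKO) and 2124 reads (wild type). As the strand setting is unknown, the reads there cannot be told apart. Elovl7 (Entrez 74559, chromosome 13, 108214326 to 108287109, plus strand), a less abundant elongase of long chains, had 113 reads in cKO-labelled cells against 230 in wild-type-labelled cells, or 1.90 against 3.87 TPM. It was 2.04-fold lower (1.62 to 2.58), but its log2 difference with 1 CPM added was -0.92, just short of 2-fold. Elovl7 per 100 reads of Elovl1 was 6.51 (cKO) and 16.2 (wild type), 2.49-fold fewer (1.96 to 3.18).
The letters GAANNTTC, searched as a heat shock element and marked in capitals, lie in the window of a second start of Elovl1 at chr4:118429451-118429750. This window is shown as the only match of that motif among these 13 windows. Over windows of all genes 7.86% hold the motif, so 1 match in 13 is near that share.
Elovl1: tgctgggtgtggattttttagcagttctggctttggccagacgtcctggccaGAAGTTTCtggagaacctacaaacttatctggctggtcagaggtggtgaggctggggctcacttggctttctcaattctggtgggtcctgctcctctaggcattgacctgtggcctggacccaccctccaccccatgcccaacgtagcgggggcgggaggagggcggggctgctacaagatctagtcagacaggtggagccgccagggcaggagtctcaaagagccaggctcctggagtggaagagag
The other elongation genes differed less. Over all kept genes 10.2% were lower by 1.5-fold and 4.22% higher. Of 12 kept genes of elongation and 2-hydroxylation the 2 lower by 1.5-fold were Fa2h and Elovl7 and 0 were higher, with a median of -0.05. Elovl5, the most abundant of them by CPM in the wild type library, had 402.66 TPM (cKO) and 386.24 TPM (wild type).

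All 6 ceramide synthase genes lay above 0 as listed, with a median of 0.23, though Cers1 did so only without the reads of Gdf1. Over all kept genes 6037 of 12618 lay above 0. The ratios of Cers3 (0.661 to 1.99) and Cers5 (0.992 to 1.16) had counting intervals that include 1. Cers2 (Entrez 76893, chromosome 3, 95314771 to 95323599, plus strand), which uses very long acyl chains and is the main ceramide synthase of oligodendrocytes, had 2977 reads in cKO-labelled cells and 2686 in wild-type-labelled cells, or 142.08 and 128.47 TPM. The ratio was 1.10 (1.05 to 1.16). Its start overlaps Anxa9 on the opposite strand by 410 bases, and that gene had 8 reads in cKO-labelled cells against 9 in wild-type-labelled cells. LOC115489748, which also overlaps the start, had 7 reads in cKO-labelled cells against 6 in wild-type-labelled cells. The end of Cers2 overlaps Setdb1 on the opposite strand by 75 bases, a gene counted at 2095 reads in cKO-labelled cells against 2331 in wild-type-labelled cells. As no strand setting is stated, reads of these stretches cannot be assigned to either gene. Cers2 held 58.6% of the TPM of the 6 genes in cKO-labelled cells and 60.0% in wild-type-labelled cells, followed by Cers5 with 26.9% (cKO) and 28.4% (wild type). The lower level of the galactolipid genes stood beside a Cers2 level that was slightly higher.

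Cers4 (Entrez 67260, chromosome 8, 4492818 to 4529603, plus strand), another synthase of long-chain ceramides, had 300 reads in cKO-labelled cells and 215 in wild-type-labelled cells, a ratio of 1.39 (1.16 to 1.66). In deposited TPM the values were 6.55 (cKO) and 5.01 (wild type), a ratio of 1.31. The transcript length implied by reads and FPKM was 3936 bases in cKO-labelled cells and 3681 in wild-type-labelled cells. The reads per 100 reads of Cers2 were 10.1 (cKO) and 8.004 (wild type), a change of 1.26-fold (1.04 to 1.52).

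Cers1 (Entrez 93898, chromosome 8, 70315775 to 70331588, plus strand), the ceramide synthase of neurons, cannot be read alone. As listed it had 543 reads in cKO-labelled cells and 349 in wild-type-labelled cells, or 19.32 and 12.43 TPM, 1.55-fold higher (1.35 to 1.78). Gdf1, which encodes a secreted growth factor and shares the locus, had 0 reads in cKO-labelled cells and 600 in wild-type-labelled cells. In the GENCODE models matched to RefSeq, Cers1 has a transcript of 8 exons and 2711 bases, and Gdf1 a long transcript of 8 exons and 2728 bases that holds all 2711 of them plus 17 more at its ends. A short Gdf1 transcript of 1349 bases lies wholly inside both. The length implied by reads and FPKM was 2413 bases for Gdf1 in wild-type-labelled cells. For Cers1 it was 2417 bases (cKO) and 2409 bases (wild type). All 3 values lie near each other and above the length of the short Gdf1 transcript. Reads over the shared exons cannot be assigned to either gene by sequence.
The start region of Cers1 and that of the long Gdf1 transcript are the same window in RefSeq, chr8:70315525-70315824 on the plus strand, with the 50 bases after the start in capitals.
Cers1 and Gdf1: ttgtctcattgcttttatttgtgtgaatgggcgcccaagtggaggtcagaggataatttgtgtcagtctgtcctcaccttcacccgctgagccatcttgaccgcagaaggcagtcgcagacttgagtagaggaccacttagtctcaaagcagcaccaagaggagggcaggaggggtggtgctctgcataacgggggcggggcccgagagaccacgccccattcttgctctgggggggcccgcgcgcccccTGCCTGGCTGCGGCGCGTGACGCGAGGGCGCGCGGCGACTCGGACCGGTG
Summed, both genes had 543 reads in cKO-labelled cells and 949 in wild-type-labelled cells, or 19.32 and 33.77 TPM. The sum was 1.75-fold lower (1.58 to 1.95) in cKO-labelled cells, a log2 difference of -0.79, so the direction of Cers1 turns with the way its reads are counted. Cers1 took 100% of the summed reads in cKO-labelled cells and 36.8% in wild-type-labelled cells. Without Cers1, Cers2 held 63.6% (cKO) and 63.7% (wild type) of the TPM of the other 5 ceramide synthases.

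**Figure D3:**
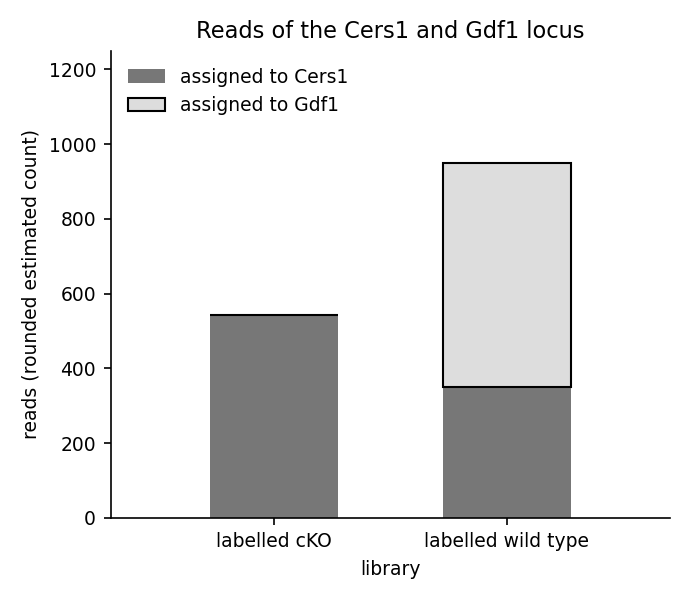
Reads assigned to Cers1 (dark) and Gdf1 (light) in cKO-labelled cells (left) and wild-type-labelled cells (right). The dark part is taller in cKO-labelled cells, at 543 against 349, while the whole bar is shorter, at 543 against 949.

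The rest of the pathway was read from 77 genes in 9 groups, of which 75 were in the table and 70 were kept. Apart from the 10 genes above, 60 were kept. Of these, 0 were at least 2-fold apart in either direction, against 5.1% of all kept genes. The median of the 60, -0.03, lay beside -0.02 for all kept genes. The 2 that were 1.5-fold apart, against 14.4% of all kept genes, were the sphingomyelin synthase gene Sgms2 and the sphingosine kinase gene Sphk1. Both were higher in cKO-labelled cells and named after their values were seen. Sgms2 had 303 reads (cKO) and 176 reads (wild type), a ratio of 1.71 (1.42 to 2.08). Sphk1 had 389 reads (cKO) and 227 reads (wild type), a ratio of 1.71 (1.45 to 2.02).

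Of 10 kept genes of glucosylceramide and ganglioside synthesis 7 lay above 0, against 6037 of all 12618 kept genes. Their median was 0.10, and Ugcg was the only one 1.5-fold apart, against 14.4% of all kept genes. B4galt6, which adds galactose to glucosylceramide, had 2109 reads (cKO) and 1571 reads (wild type), a ratio of 1.34 (1.25 to 1.43). Of 7 sphingomyelin genes 5 lay below 0 (median -0.17), against 52.2% of all kept genes. Samd8, a ceramide phosphoethanolamine synthase and the most abundant of the 7 by CPM in the wild type library, had a ratio of 0.879 (0.826 to 0.936). Of 8 genes of ceramide breakdown and sphingosine phosphate 2 lay below 0 (median 0.07), against the same 52.2%. Sgpl1, the sphingosine phosphate lyase, had a ratio of 1.08 (1.04 to 1.12).

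Of 12 genes of lysosomal glycolipid breakdown 10 lay below 0, against 52.2% of all kept genes, with a median of -0.23. Of the 12, 0 were 1.5-fold apart, against 14.4% of all kept genes. Psap, the precursor of the saposins that help the hydrolases reach their lipids, had 17029 reads (cKO) and 20064 reads (wild type), a ratio of 0.845 (0.828 to 0.863). The group also holds the enzymes that degrade the myelin glycolipids. Galc, which removes galactose from galactosylceramide, had a ratio of 0.854 (0.795 to 0.917), and Arsa, which removes the sulfate of sulfatide, 0.825 (0.734 to 0.926). Both were named for that role and not by size. Of 4 lipid transfer genes 2 lay below 0 (median -0.04), with Gltp, the glycolipid transfer protein, 1.47-fold lower (1.36 to 1.60).

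**Figure D4:**
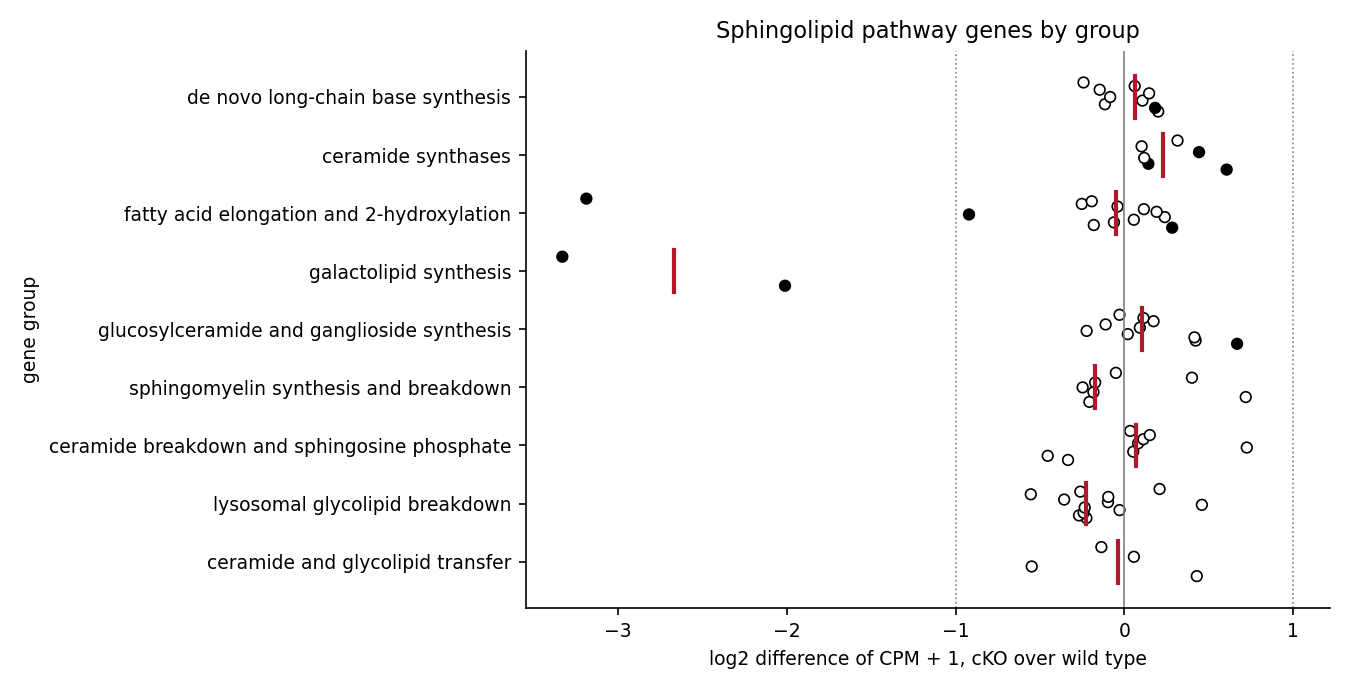
Log2 difference of CPM + 1, cKO over wild type, for the 70 kept pathway genes by group. Filled points are the 10 genes of the account, open points the other 60, red bars the group medians, and dotted lines 2-fold; the 3 points left of -1 are Gal3st1, Fa2h and Ugt8a.

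Most markers of the oligodendrocyte lineage moved with the galactolipid genes. Of 13 markers reported here 12 were kept, of which 9 were lower by 2-fold or more, 0 higher, at a median of -3.23. Over all kept genes 3.85% were lower by that much and 1.25% higher. Short of 2-fold were Olig1 (ratio 0.954), Olig2 (0.928) and Cspg4 (0.842). Enpp6 and Mag rested on 2 and 1 reads in cKO-labelled cells. Without Olig1 and Olig2, which progenitors in culture also make, the summed TPM of the other 11 was 129 in cKO-labelled cells against 717 in wild-type-labelled cells, 5.56-fold lower. With both it was 1953 (cKO) against 2642 (wild type), 1.35-fold lower. Leaving out Olig1 and Olig2 was not planned, and they were the 2 kept markers nearest to no change. None of the 13 was at 0 reads in either library. The part of this marker change in the results was not tested. Astrocyte markers were lower too, with 6 of 7 at least 2-fold lower, against 3.85% of all kept genes. Their summed TPM was 888 (cKO) against 1799 (wild type). Of 6 neuron markers 4 lay below 0 and 2 above, where 52.2% of all kept genes lay below. Dcx alone was at least 2-fold lower, at 10.3-fold (8.21 to 13.2), and Snap25 was 1.73-fold lower. Tubb3 and Map2 had ratios of 0.829 and 0.855, Rbfox3 1.05 (0.531 to 2.08) and Syt1 1.18 (0.912 to 1.53). Neuron markers summed to 192 TPM (cKO) against 243 TPM (wild type), of which Map2 held 146.83 (cKO) and 171.79 (wild type). Markers of Schwann cells, the other cells that make these lipids, summed to 1.42 TPM (cKO) and 2.01 TPM (wild type).

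**Figure D5:**
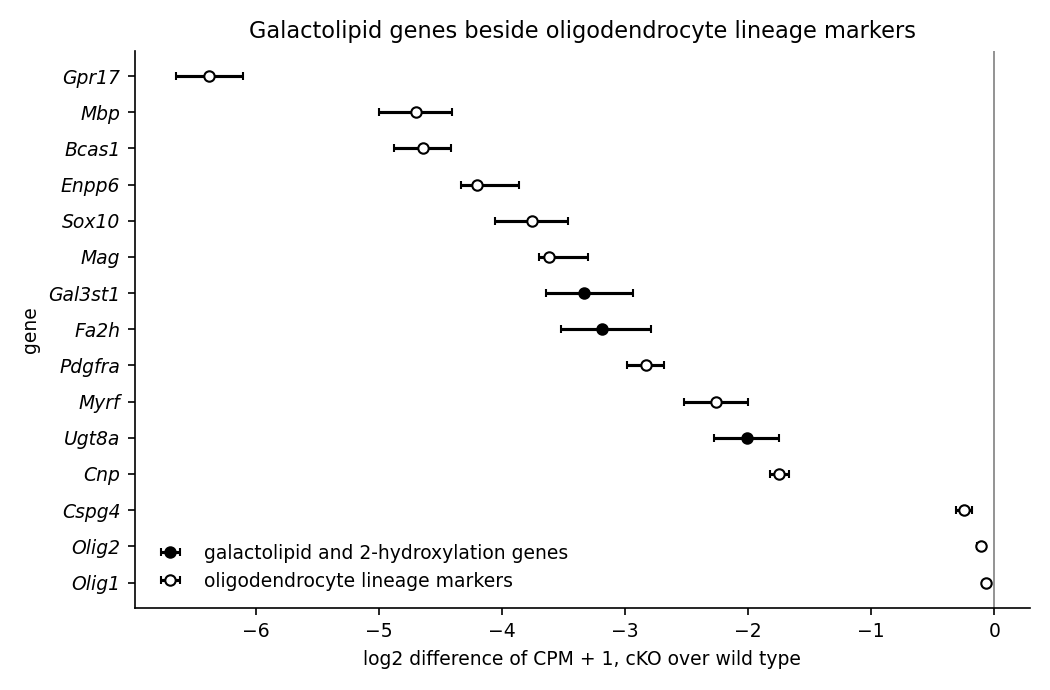
Log2 difference of CPM + 1, cKO over wild type, with 95% counting intervals, for Gal3st1, Fa2h and Ugt8a (filled) and the 12 kept oligodendrocyte lineage markers (open). Gal3st1 and Fa2h lie between Mag at -3.62 and Pdgfra at -2.83, and Ugt8a between Myrf at -2.26 and Cnp at -1.75. The added 1 CPM understates low genes, so this order is not that of the folds. Sox10 at -3.76 was 17.5-fold lower, and Gal3st1 at -3.33 was 27.2-fold lower.

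The 3 galactolipid genes were also set against 3 single lineage genes inside each library, pairs chosen after their values were seen. With 1 library per group, these ratios do not show that one gene follows another. Reads of Ugt8a per 100 reads of Myrf, a transcription factor gene of myelination, were 99.1 (cKO) and 83.1 (wild type), a change of 1.19-fold (0.889 to 1.60), not detectable at this depth. Against the myelin basic protein gene Mbp, Ugt8a was 197 (cKO) and 26.1 (wild type) per 100 reads, so the ratio was 7.53-fold higher (5.35 to 10.7). Gal3st1 per 100 reads of Mbp was 17.2 (cKO) and 13.7 (wild type), a change of 1.26-fold (0.565 to 2.52), and Fa2h per 100 reads was 22.4 (cKO) and 13.7 (wild type), 1.63-fold (0.809 to 3.06). Neither change was detectable in reads, but both intervals reach past 2-fold higher. They rest on 10 reads of Gal3st1 and 13 of Fa2h in cKO-labelled cells. The length implied for Mbp differed between the libraries, at 3298 bases (cKO) and 1895 bases (wild type), and in deposited TPM the changes against Mbp were 2.19-fold for Gal3st1, 2.83-fold for Fa2h and 12.9-fold for Ugt8a. Against the transcription factor gene Sox10, Gal3st1 changed by a factor of 0.643 (0.290 to 1.29), Fa2h by 0.836 (0.415 to 1.57) and Ugt8a by 3.86 (2.74 to 5.46). Against Myrf, Gal3st1 was 5.02-fold lower (2.58 to 10.9) and Fa2h 3.86-fold lower (2.12 to 7.61).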

How the data were processed

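Total RNA of 1 library per genotype label was sequenced. Libraries followed standard Illumina methods after kit extraction, per the labels' protocols. Per the submitters' processing notes, GRCm38.p6 was the build. For the aligner, counter, annotation and strand setting the sources used here state nothing. A single table was deposited by the authors, with an estimated count of reads per gene, TPM and FPKM, each named per the file headers. Its last kind of value, a signal, is a normalized read count by its header and equals, in the deposited values, the read count rounded up times 1.00261 (cKO) or 0.997397 (wild type), to a relative tolerance of 1e-06 in 100% of genes with reads. Of the deposited counts 89.8% (cKO) and 90.0% (wild type) were whole to both decimals given.

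Estimated counts were rounded and divided by column totals to give CPM. Genes reaching 1 CPM in at least 1 library were kept. Differences are log2 of CPM + 1, which understates low genes. Fold intervals are exact conditional binomial (Clopper-Pearson), and intervals of ratios within a library are those of the conditional odds ratio (scipy 1.17.1). Levels carry exact Poisson intervals. All cover counting error only, because each group has 1 library. No molecular identifiers tell independent molecules apart, so the intervals may be too narrow even for that. With 1 library per group no p-value is given. Implied length, in bases, is the count divided by FPKM and scaled by the column total.

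Coordinates and start regions are from RefSeq GRCm38.p6, exons from GENCODE on GRCm38. Long noncoding RNA genes also overlap the spans of Gal3st1 (Gm46265, 3595 bases), Ugt8a (Gm40145, 1414 bases) and Sptlc2 (Gm33444, 3258 bases). Pseudogenes Gm32376 and Gm30747 overlap the span of Elovl7. None of these has deposited counts. The end of Cers1 overlaps Upf1 on the opposite strand by 96 bases, a gene with 2095 reads (cKO) and 2062 reads (wild type). Cert1 is listed under its older symbol Col4a3bp, while Sptlc3 and Acer1 were not analysed here. One lineage marker is not reported here. Named genes were the 10 genes, Gdf1, pathway genes at least 2-fold apart and the most abundant gene of each group in the wild type library; all other genes were chosen after their values were seen or for a stated role. Genes and lists were chosen with earlier results of these data known. The counting of folds was checked on simulated counts with counting noise only. That check used well-counted genes and a fixed size of change, smaller than those of Gal3st1 and Fa2h. It did not cover variation between cultures. Alternatives were other scalings (edgeR 4.0.16 TMM, median of ratios), the other deposited units, added values of 0.1 and 5 CPM, other filters and a 1.5-fold threshold.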

Additional observations from a re-analysis of the deposited data

How the results depend on the processing

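The 3 genes at least 2-fold lower were also counted under each planned setting, with Elovl7 joining them when 0.1 CPM was added (log2 difference of -1.02). No paired analysis was possible because each group has 1 library and no test was made. The direction of each of the 10 genes held under the TMM and median of ratios scalings, the 3 other deposited units, the added values and the filters. With Gdf1 reads summed in, Cers1 turned to -0.79. Of all kept genes, 486 were at least 2-fold lower and 158 higher. The counts were 1290 and 532 at 1.5-fold, 193 and 73 with 5 CPM added, and 284 and 94 in deposited FPKM, and 769 were lower with 0.1 CPM added. At 1.5-fold 2 of the 10 genes (Cers1 and Ugcg) and 4 of the pathway genes were higher. The size of the largest differences depends on the added value, with Gal3st1 between -4.53 and -1.81, Fa2h between -4.20 and -1.77 and Ugt8a between -2.16 and -1.55. Depth limits the levels of Gal3st1 and Fa2h in cKO-labelled cells, which rest on 10 and 13 reads. Leaving out a replicate was not possible with 1 library per group.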

Other observations

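The following genes were chosen after their values were seen. B4galt5, which like B4galt6 makes lactosylceramide from the product of Ugcg, had 1261 reads (cKO) and 933 reads (wild type), a ratio of 1.35 (1.24 to 1.47). Col4a3bp, the ceramide transfer protein of the sphingomyelin branch, had 874 reads (cKO) and 642 reads (wild type), a ratio of 1.36 (1.22 to 1.504). The ganglioside synthases further on differed less, with St3gal5, which makes GM3, at a ratio of 1.01 (0.868 to 1.19) and B4galnt1 at 0.852 (0.762 to 0.953). Smpd3, a neutral sphingomyelinase, had a ratio of 1.33 (1.18 to 1.497), while the lysosomal enzyme Smpd1 had 0.840 (0.783 to 0.902).

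The lysosomal group was not uniform. Gm2a, the activator protein for GM2 breakdown, was 1.47-fold lower (1.42 to 1.53) and Hexa 1.28-fold lower (1.21 to 1.36). Gla, the lysosomal alpha-galactosidase, was higher, with 312 reads (cKO) and 221 reads (wild type), a ratio of 1.41 (1.18 to 1.68).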
